A study of Mus musculus with 30 samples.

Results

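Notch signalling passes information between touching cells. A ligand of the Jagged or Delta-like family on one cell binds a Notch receptor on its neighbour, the protease complex γ-secretase then releases the receptor's intracellular domain, and this domain joins the DNA-binding protein RBPJ and a Mastermind-like coactivator to turn on genes of the Hes and Hey families. In vessel walls the pathway is known for signals between endothelial cells and mural cells (pericytes and smooth muscle cells), and in the gut for its control of epithelial stem and secretory cells.

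The genes described here are 4 Notch receptors (Notch1, Notch2, Notch3 and Notch4), 4 of their ligands (Jag1, Jag2, Dll1 and Dll4) and 2 target genes of the Hey family (Hey1 and Heyl). They were picked by symbol and make 10 of the 32316 genes measured. Cells of the intestinal lamina propria were sorted by flow cytometry from untreated C57BL6/Nrj mice aged 8 to 10 weeks, and their RNA was amplified as whole transcriptomes and sequenced in bulk. The 30 libraries cover 10 mesenchymal populations of the small intestine (SI) and the colon (C), with 3 libraries each. The labels name 3 individual mice as the source of the tissue without saying which library came from which mouse, so the p-values measure the spread between these libraries. The paper speaks of subsets of both tissues taken from shared mice, so libraries of different populations may come from 1 mouse, which the model does not take into account.

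Before the gates were set, dead cells and cells positive for lineage markers, CD31, BP3, EpCAM or high NCAM were removed, and the muscularis externa had been stripped off. Pericytes of both tissues were sorted as PDGFRa-ESAM-1+PDPN- cells, and smooth muscle cells (SMC), from the small intestine alone, as PDGFRa-ESAM-1+PDPN+ cells. The fibroblasts (FB) of the small intestine were CD34 FB (ESAM-1-PDGFRaintCD34+), PDGFRahi FB (ESAM-1-PDGFRahiCD34-) and Fgfr2 FB (ESAM-1-PDGFRaintCD34-). Those of the colon were CD81 FB (ESAM-1-PDPNintCD34+CD90-), CD90 FB (ESAM-1-CD34+PDPNhiCD90+), Fgfr2 FB (ESAM-1-PDPNhiCD34+CD90-) and PDGFRahi FB (ESAM-1-PDPN+CD34-). The gates of FB populations with the same name therefore differ between the tissues.

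Library totals ran from 2245052 to 19096945 estimated counts, with a median of 9601683, and the smallest library was SI Fgfr2 FB replicate 3. Gene levels are in CPM, a unit that divides by library size after TMM correction for library composition, and are printed as mean ± SD of 3 libraries. Levels of different genes are set side by side as RPKM, which also divides by transcript length, while marker lists are summed in CPM and the gene adding most to such a sum is named without correction for length.

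The labels were checked against marker genes. Esam, the gene of ESAM-1, averaged 110 CPM in SI pericytes, 141 in colonic pericytes and 119 in SMC, and at most 0.732 in any FB population. Pdpn averaged 0.185 and 0.276 CPM in the pericytes of the SI and the colon, 10.1 in SMC and 34.4 to 83.7 in FB. Pdgfra reached 6517 CPM in SI PDGFRahi FB and 2445 in colonic PDGFRahi FB, against 626 to 924 in the other FB. Cd34 averaged 494 to 1067 CPM in FB sorted as CD34+. In those sorted as CD34- it was 117 in SI PDGFRahi FB, 85.8 in SI Fgfr2 FB and 33.8 in colonic PDGFRahi FB. Thy1, the gene of CD90, averaged 197 CPM in colonic CD90 FB. In FB sorted as CD90- it was 98.8 in colonic CD81 FB and 26.6 in colonic Fgfr2 FB. Pericytes, gated without CD90, had 221 in the SI and 142 in the colon. Of the 8 pericyte markers listed, all were found, and their summed level was 48490, 28500 and 39380 CPM in the SI pericyte libraries and 36900, 50700 and 30410 in the colonic ones, with Rgs5 adding most. The same sum was 4062 to 7490 CPM in SMC and at most 4399 in an FB library. The 8 SMC markers summed to between 19100 and 23010 CPM in SMC, 11190 and 12360 in colonic pericytes and 4255 and 6007 in SI pericytes, with Myh11 adding most in each. The 8 FB markers summed to at least 13670 CPM in every FB library, 1516 to 2637 in pericyte libraries and 5214 to 9458 in SMC.

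The first question was which Notch genes set pericytes apart from the FB of the same tissue. Notch1, Notch3, Jag1, Dll4 and Heyl rose in pericytes of both tissues, as did Hey1 with libraries that overlapped FB, and Dll1 fell. In the SI, edgeR's quasi-likelihood test with Benjamini-Hochberg adjustment thus called 6 of the 10 genes higher and 1 lower, where 16.6% of the 17542 genes tested were called (adjusted p below 0.05 and a log2 fold change beyond 1.5 either way). In the colon it likewise called 6 higher and 1 lower, where 16.0% of all genes were called. The median log2 fold change of the 10 genes was 4.32 in the SI and 3.70 in the colon, beside -0.02 and 0.01 over all genes tested, and both medians were unchanged with Dll1 at its bound or counting ratio. Bulk libraries cannot tell fewer cells of a type from less RNA per cell, here or further on.

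Without a test, Notch1, Notch3, Jag1, Dll4 and Heyl were above every FB library of the tissue in all 3 pericyte libraries, in the SI (5 of 10 genes, and 4.56% of all genes) and in the colon (5 of 10, and 4.76%). Dll1 was below every FB library in both tissues (1 of 10 genes, where the share of all genes was 6.14% in the SI and 5.22% in the colon). On the CPM scale 8 of the 10 genes had their highest mean in a pericyte population, where 36.8% of all genes did. The 2 others, Notch2 and Dll1, were highest in FB. The count was 8 as well on the RPKM scale (37.1% of all genes) and on the CPM scale without TMM (33.0%).

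**Figure D1:**
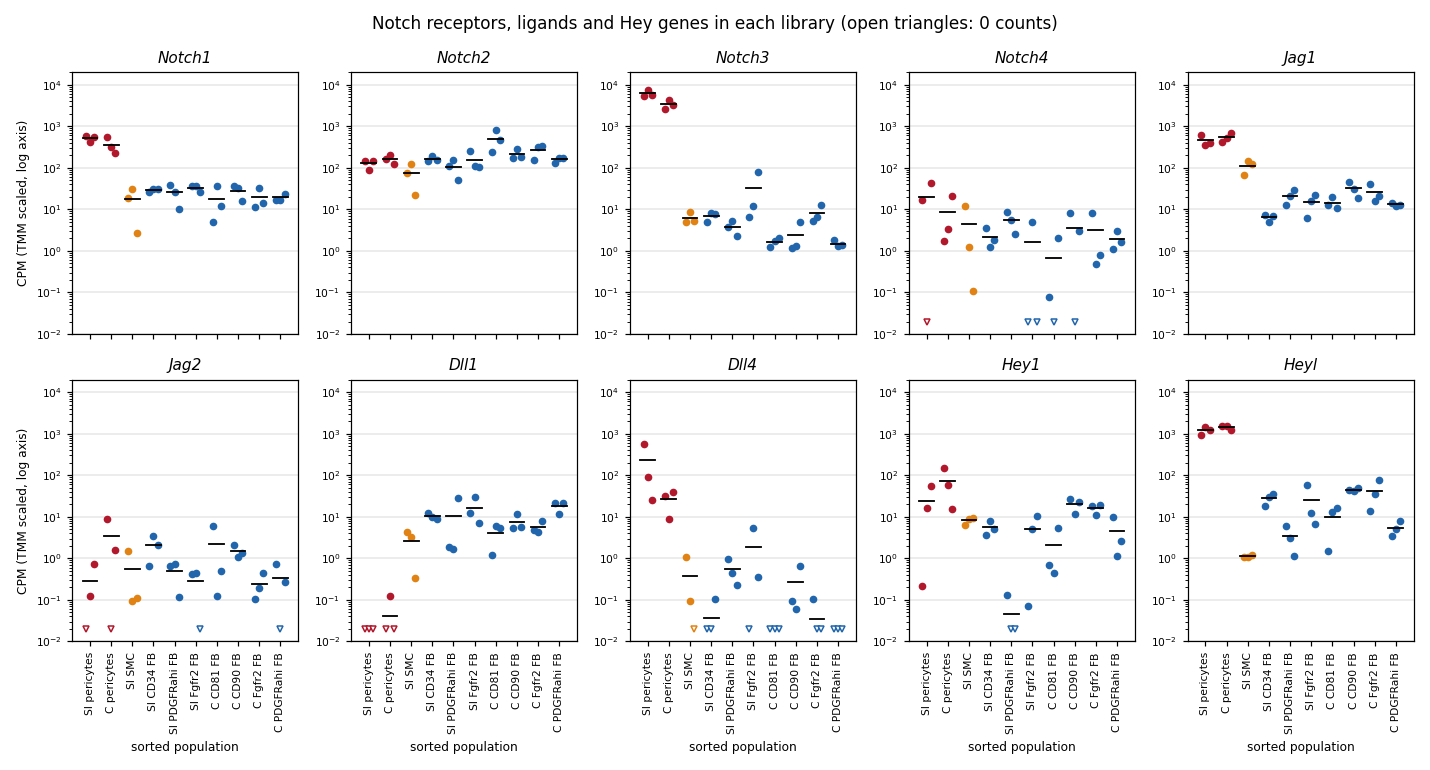
Level of each of the 10 Notch genes in CPM (TMM scaled, log axis) in the 10 sorted populations. Each point is 1 library, the bar is the mean of 3 libraries, and an open triangle marks a library with 0 counts. Red marks pericytes, orange SMC and blue FB, and the Notch3 points of the SI pericytes sit between 5489 and 7295 CPM.

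Notch3 (chr17:32120820-32166852, minus strand; all positions are of GRCm38 with GENCODE M21), the receptor best known from vascular smooth muscle and pericytes, read 5489, 7295 and 5746 CPM in SI pericytes and 2662, 4275 and 3309 CPM in colonic pericytes. All 6 libraries were far above every other library, and the SI libraries were all above the colonic ones. SMC, the other ESAM-1+ population, read 4.96, 8.57 and 5.28 CPM, within the range of the SI FB libraries. In FB the level was highest in SI Fgfr2 FB at 6.42, 12.2 and 77.5 CPM, of which the last is the library with the fewest counts. From highest to lowest mean, SI pericytes (6177 ± 977 CPM) and colonic pericytes (3415 ± 812) were followed by SI Fgfr2 FB (32.0 ± 39.5), colonic Fgfr2 FB, SI CD34 FB, SMC, SI PDGFRahi FB, colonic CD90 FB, CD81 FB and PDGFRahi FB (1.49 ± 0.304). From SI Fgfr2 FB downwards each neighbour in this order overlapped the next. The ratio of means to FB was 433 in the SI and 984 in the colon, and the SI ratio was 926 without SI Fgfr2 FB replicate 3, which brings the SI FB mean from 14.2 to 6.67 CPM. The fitted log2 fold change was 9.36 (SE 0.49, adjusted p = 6.06e-14, edgeR) in the SI. It was 10.32 (SE 0.45, adjusted p = 5.59e-16, edgeR) in the colon.

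Notch1 (chr2:26457903-26516663, minus strand), a receptor used in many tissues, read 584, 424 and 562 CPM in SI pericytes and 545, 321 and 224 CPM in colonic pericytes. The pericytes of the 2 tissues overlapped each other and were above all other libraries, whose population means ran from 32.6 ± 5.77 CPM in SI Fgfr2 FB down to 17.6 ± 14.2 in SMC with each neighbour overlapping the next. The mean in pericytes was 17.9 times that of FB in the SI and 17.2 times in the colon. The log2 fold change was 4.17 (SE 0.47, adjusted p = 1.13e-07, edgeR) in the SI and 4.12 (SE 0.43, adjusted p = 1.99e-08, edgeR) in the colon.

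Notch2 (chr3:98013527-98150361, plus strand), a receptor broadly present in mesenchyme, showed another order. It was highest in colonic CD81 FB at 236, 805 and 476 CPM (506 ± 286), followed by colonic Fgfr2 FB (263 ± 96.9) and CD90 FB (212 ± 65.7), and was lowest in SMC (74.7 ± 51.3). Every population overlapped its neighbour in this order, and SI pericytes (128 ± 35.5) and colonic pericytes (163 ± 41.2) fell inside it. In pericytes against FB, Notch2 did not pass the test in the SI (log2 fold change -0.13, adjusted p = 0.894, edgeR) or in the colon (-0.67, adjusted p = 0.281). It did pass the test for any difference among the 10 populations (adjusted p = 0.00384, edgeR).

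Notch4 (chr17:34564268-34588503, plus strand), a receptor known from endothelium, was scarce. It read 17.2, 0 and 43.9 CPM in SI pericytes (20.4 ± 22.1) and averaged 8.78 ± 10.9 CPM in colonic pericytes and 0.692 to 5.48 in the other populations. All neighbours in its order overlapped. It was not called in pericytes against FB in the SI (log2 fold change 2.90, SE 1.34, adjusted p = 0.131, edgeR) or in the colon (2.15, adjusted p = 0.256), and without SI Fgfr2 FB replicate 2 the SI value became 5.29 and was called. Without pericyte replicate 3 of the tissue it was 1.65 in the SI and 0.34 in the colon. The colonic value was 3.11 and not called without colonic CD81 FB replicate 3.

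Jag1 (chr2:137081456-137116644, minus strand), a Jagged ligand that mural and endothelial cells are known to carry, read 626, 351 and 402 CPM in SI pericytes and 419, 525 and 703 CPM in colonic pericytes. The tissues overlapped, and all 6 libraries were above all others. SMC came next at 66.0, 148 and 125 CPM, below every pericyte library and above every FB library. The FB means ran from 32.0 ± 13.1 CPM in colonic CD90 FB to 6.42 ± 1.21 in SI CD34 FB, each overlapping its neighbour except the last step, where all SI CD34 FB libraries were lower than those of colonic PDGFRahi FB. Against FB the mean was 32.6 times higher in SI pericytes and 25.6 times in colonic pericytes. The log2 fold change was 5.19 (SE 0.34, adjusted p = 4.97e-12, edgeR) in the SI and 4.78 (SE 0.31, adjusted p = 1.71e-12, edgeR) in the colon.

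Dll4 (chr2:119325784-119335962, plus strand), a Delta-like ligand best known from arterial and sprouting endothelium, had 2628, 725 and 204 counts in the SI pericyte libraries (564, 91.6 and 25.1 CPM) and 300, 72 and 546 counts in the colonic ones (32.3, 9.07 and 39.2 CPM). The pericyte libraries of the tissues overlapped, and all were above every other library. The gene had 0 counts in all 6 libraries of colonic CD81 FB and PDGFRahi FB, and its mean was 1.86 ± 2.93 CPM in SI Fgfr2 FB and below 0.54 in each other FB population and SMC. The mean in SI pericytes was 280 times that of SI FB (adjusted p = 5.69e-07, edgeR). In the colon the ratio was 360 (adjusted p = 2.55e-07, edgeR). In SI pericyte replicate 1, 1932 of the 2628 counts were assigned to a transcript of 692 bases, and the full-length transcript of 3747 bases took 696, 725 and 204 counts in the 3 libraries. The fitted SI log2 fold change of 9.29 was 7.30 without SI pericyte replicate 1, 9.94 without SI CD34 FB replicate 3 and 10.79 without SI Fgfr2 FB replicate 2, and was called each time. The ratio of means was 71.8 without SI pericyte replicate 1 and 909.8 without SI Fgfr2 FB replicate 2, and in the colon 959 without CD90 FB replicate 3.

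Dll1 (chr17:15367354-15376872, minus strand), a Delta-like ligand of mesenchymal and epithelial cells, ran the other way. It had 0 counts in each SI pericyte library and 0, 1 and 0 in the colonic pericyte libraries. In FB the mean ran from 18.1 ± 5.55 CPM in colonic PDGFRahi FB over 16.5 ± 11.9 in SI Fgfr2 FB, 10.6 ± 15.3 in SI PDGFRahi FB and 10.4 ± 1.61 in SI CD34 FB to 4.14 ± 2.60 in colonic CD81 FB, with every neighbour overlapping, and SMC (2.64 ± 2.07) overlapped the lowest FB. Both pericyte populations were below all of these. Against 3 counts per library, the least that 0 counts can be told from, Dll1 was at least 26.9-fold lower in SI pericytes than in SI FB (adjusted p = 0.000122, edgeR). In the colon the ratio of summed counts, each divided by the summed library sizes, was 247 (212 for mean CPM), with a counting interval from 44.2 to 9752 (adjusted p = 0.000375, edgeR). Such intervals and floors cover counting error only, since amplified reads are not independent molecules. The fitted log2 fold change, which rests on the prior count, was -9.18 without SI PDGFRahi FB replicate 3 in the SI. In the colon it was -9.36 without colonic pericyte replicate 2 and -6.73 without colonic pericyte replicate 3, and the call was kept.

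Jag2 (chr12:112907819-112929776, minus strand), the other Jagged ligand, was close to absent. Its means ran from 3.50 ± 4.77 CPM in colonic pericytes to 0.248 ± 0.176 in colonic Fgfr2 FB, all neighbours overlapping, with at most 105 counts in any population. It was called in neither pericyte comparison (log2 fold change -1.19, adjusted p = 0.626 in the SI, and 2.24, adjusted p = 0.165 in the colon, edgeR). The colonic value was 0.13 without colonic pericyte replicate 1 and 2.94 without colonic CD81 FB replicate 1, not called either time.

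Heyl (chr4:123233556-123249875, plus strand), a transcriptional repressor and Notch target of mural cells, read 935, 1452 and 1194 CPM in SI pericytes and 1556, 1501 and 1249 CPM in colonic pericytes. The tissues overlapped, and no other library reached even 78.0 CPM. Next came colonic CD90 FB (44.4 ± 3.28 CPM) and Fgfr2 FB (42.2 ± 32.7), SI CD34 FB (28.1 ± 8.89), SI Fgfr2 FB (25.4 ± 27.4), colonic CD81 FB (10.1 ± 7.60), colonic PDGFRahi FB (5.47 ± 2.33), SI PDGFRahi FB (3.45 ± 2.53) and SMC (1.11 ± 0.0890), and each overlapped the next. The mean was 62.9 times that of FB in SI pericytes and 56.3 times in colonic pericytes. The log2 fold change was 6.46 (SE 0.52, adjusted p = 1.76e-10, edgeR) in the SI and 6.32 (SE 0.46, adjusted p = 1.66e-11, edgeR) in the colon.

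Hey1 (chr3:8663359-8667256, minus strand), a related repressor, read 0.215, 16.0 and 55.4 CPM in SI pericytes (1, 127 and 450 counts) and 146, 58.0 and 15.5 CPM in colonic pericytes. These libraries were widely spread, and both pericyte populations overlapped FB. Colonic CD90 FB (20.5 ± 8.05 CPM) and Fgfr2 FB (16.1 ± 4.46) followed, clear of SMC (8.15 ± 1.68), and SI PDGFRahi FB had 1 count in 3 libraries. The mean was 6.60 times that of FB in SI pericytes and the fitted log2 value was 4.47 (SE 0.96, adjusted p = 0.00122, edgeR). In the colon it was 6.74 times, and the fitted log2 value was 3.27 (SE 0.81, adjusted p = 0.00417, edgeR). The fitted SI value is larger than the ratio because the model averages FB populations on the log scale. The ratio was 2.25 without SI pericyte replicate 3 and, in the colon, 3.39 without colonic pericyte replicate 1. The fitted SI value was 2.92 without SI pericyte replicate 3 and 5.12 without SI PDGFRahi FB replicate 1, called both times, and 2.75 and not called with the FB libraries as 1 group. The colonic value was 2.28 without colonic pericyte replicate 1 and then not called.

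None of the 10 genes passed the interaction test, which asks whether the pericyte to FB difference itself differed between SI and colon (0 of 10 called by edgeR, 0 at an unadjusted p under 0.05 and 0 by DESeq2, where 3.76% of all genes were called by edgeR, 19.8% had such a p and 10.9% were called by DESeq2). The value of Notch3 was -0.96 (SE 0.65, adjusted p = 0.44, edgeR), and those of other genes were 0.04 for Notch1, 0.41 for Jag1 and 0.14 for Heyl. The scarce Jag2 had -3.42, which was -1.32 without colonic pericyte replicate 1 and -5.33 without SI pericyte replicate 3. For Dll1 the fitted value, which rests on the prior count, was -2.68, and -0.68 without colonic pericyte replicate 2 or -3.29 without replicate 3. Pericytes of the 2 tissues, sorted through the same gate, were also compared directly. Here too edgeR called 0 of 10 genes, with 1 at an unadjusted p under 0.05 (Dll4) and 0 by DESeq2, where 5.72% of all genes were called by edgeR, 24.1% had such a p and 13.7% were called by DESeq2. Notch3 had a log2 fold change of 0.85 (adjusted p = 0.363, edgeR) although its libraries did not overlap, and Dll4 had a ratio of means of 8.45 (adjusted p = 0.144, edgeR), which was 2.17 without SI pericyte replicate 1.

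The pericytes were then set against the neighbouring muscle. The SI pericytes stood above SMC for Notch1, Notch3, Jag1, Dll4 and Heyl and below it for Dll1, so that edgeR called 5 of the 10 genes higher and 1 lower, where 10.1% of all genes were called. This comparison shares the SI pericyte libraries with that against FB. Per library, Heyl read 1.06, 1.06 and 1.21 CPM in SMC, and the pericyte mean was 1077 times higher (log2 fold change 10.06, SE 0.97, adjusted p = 2.7e-08, edgeR). The mean of Notch3 was 985 times higher (log2 fold change 9.94, SE 0.83, adjusted p = 1.69e-09, edgeR). For Notch1 it was 29.8 times (4.89, adjusted p = 2.91e-05) and for Jag1 4.07 times (2.02, SE 0.47, adjusted p = 0.00419, edgeR). The 3 libraries of SI pericytes and the 3 of SMC did not overlap for any of these genes. The share of all genes without such overlap was not counted. Dll4 had 11 counts in all 3 SMC libraries together and a ratio of 592 (adjusted p = 0.000757, edgeR), and Dll1 was at least 5.70-fold lower in pericytes (adjusted p = 0.00375, edgeR). The call for Jag1 was lost when only the populations compared were fitted (2.00). The Notch1 value was 5.59 without SMC replicate 2, with a ratio of 48.1. The fitted Dll4 value of 9.17 was 7.16 without SI pericyte replicate 1, 11.83 without SMC replicate 1 and 8.55 without SMC replicate 3, and the ratios were 152, 4715 and 394.

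Against SI FB, SMC had 1 gene higher and 1 lower among the 10, where 5.16% of all genes were called by edgeR. Jag1 rose (log2 fold change 3.17, SE 0.34, adjusted p = 1.09e-07, edgeR), with a mean 8.03 times that of FB and all 3 SMC libraries above all 9 FB libraries (1 of 10 genes above every FB library, and 3.37% of all genes; 0 of 10 below, and 2.92%). Heyl fell by 3.60 on the log2 scale (SE 0.72, adjusted p = 0.00126, edgeR), although 1 SI PDGFRahi FB library, at 1.15 CPM, lay within the SMC range. Hey1 had a log2 fold change of 2.92 (adjusted p = 0.0714, edgeR) and was not called. It was called by DESeq2 (3.04), without the filter on low counts (2.95), with length-scaled TPM counts (3.304) and without SI Fgfr2 FB replicate 3 (3.25), and was 3.56 and not called without SI PDGFRahi FB replicate 1. SMC and pericytes share the SI FB libraries as their control here. For Notch3, SMC averaged 6.27 ± 2.00 CPM against 14.2 in SI FB, or 6.67 without SI Fgfr2 FB replicate 3.

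Summed over each class on the RPKM scale, the 4 receptors reached 929 ± 109 in SI pericytes, of which Notch3 made up 84.7%, and 577 ± 158 in colonic pericytes (Notch3 75.5%). In SMC the receptors summed to 20.3 RPKM, or 10.3 without SMC replicate 1, and in FB to at most 56.0, and Notch2 was the largest contributor by mean in each, with 89.98% in colonic CD81 FB. Leaving out 1 library put Notch4 first in SMC (without replicate 2 or 3) and SI PDGFRahi FB (without replicate 2), and Notch1 first in SI CD34 FB (without replicate 1). The 4 ligands summed to 440 ± 556 RPKM in SI pericytes, led by Dll4 with 70.0% of the mean, and to 125 ± 40.5 in colonic pericytes, led by Jag1 with 93.1%. The lead of Dll4 came from SI pericyte replicate 1, where the ligands summed to 1081 RPKM, against 128.7 and 108.8 in replicates 2 and 3, in which Jag1 led with 80.0% and 93.4%. Because the 692-base transcript weighs heavily per length, the Dll4 level in SI pericytes was 308 ± 505 RPKM and that in colonic pericytes 7.58 ± 4.47. In SMC the ligands summed to 39.3 ± 17.2 RPKM with 93.9% from Jag1, and in FB to between 8.30 and 21.7. By mean Dll1 led in the FB populations other than colonic Fgfr2 FB, where Jag1 led with 53.1%, but Dll1 led there without replicate 1. In SI PDGFRahi FB, whose 21.7 RPKM was the top of the range, the sum was 7.31 RPKM and Jag1 led without replicate 3. The 2 Hey genes summed to 430 ± 279 RPKM in SI pericytes and 382 ± 65.2 in colonic pericytes, with 97.0% and 88.5% from Heyl, and the SI sum was 273 without SI pericyte replicate 2. In SMC their sum was 5.65 ± 2.29 RPKM, and 95.5% of it was Hey1.

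**Figure D2:**
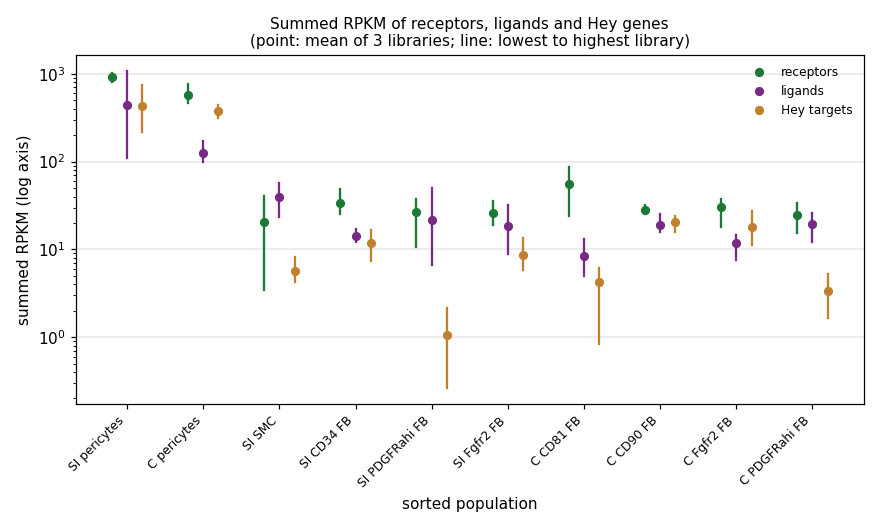
Summed RPKM (log axis) of the 4 receptors, the 4 ligands and the 2 Hey genes in each sorted population. Points are means of 3 libraries and lines run from the lowest to the highest library, and the pericytes of SI and colon lead each class, with receptor sums of 929 and 577 RPKM.

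The sorted FB were next compared with one another. SI PDGFRahi FB, the cells with the most Pdgfra, had 3 of the 10 genes lower and 0 higher than the mean of the other SI FB populations, where 3.38% of all genes were called by edgeR. Hey1 had 1, 0 and 0 counts in SI PDGFRahi FB, against 180 counts in SI CD34 FB and 86 in SI Fgfr2 FB, and 1 of the 86 came from SI Fgfr2 FB replicate 1. The ratio of summed counts was 151 (121 for mean CPM), with a counting interval from 26.9 to 6001 (adjusted p = 0.0148, edgeR). Heyl read 6.16, 3.05 and 1.15 CPM, below all libraries of the other SI FB (log2 fold change -2.97, SE 0.68, adjusted p = 0.00707, edgeR). Notch3 read 3.75, 5.36 and 2.297 CPM, overlapping the SI CD34 FB libraries at 4.86, 8.02 and 7.84 (log2 fold change -1.93, SE 0.56, adjusted p = 0.0459, edgeR). Without SI PDGFRahi FB replicate 2 or replicate 3, Heyl (-2.89 and -2.56) and Hey1 (fitted -6.15 and -6.51, from -6.90) were no longer called. The Heyl value was -3.63 without SI PDGFRahi FB replicate 1 and -2.28 without SI Fgfr2 FB replicate 1, and that of Hey1 -8.85 without SI PDGFRahi FB replicate 1, all called. The call for Notch3 was lost without SI CD34 FB replicate 2 (-1.87) or 3 (-1.88), SI PDGFRahi FB replicate 1 (-1.91), 2 (-2.28) or 3 (-1.68), or SI Fgfr2 FB replicate 3 (-1.06). It was also lost with length-scaled TPM counts (-1.97) and with only the populations compared (-2.02), and over all alternatives its adjusted p ran from 0.00403 to 0.282.

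In the colon, PDGFRahi FB had 1 of the 10 genes lower and 0 higher than the other colonic FB, where 3.51% of all genes were called by edgeR. This was Heyl, at 3.43, 4.98 and 8.01 CPM against a mean of 32.2 in the other colonic FB (log2 fold change -2.28, SE 0.63, adjusted p = 0.0332, edgeR). The libraries overlapped those of colonic CD81 FB. The call was lost without colonic CD81 FB replicate 2 (-2.21) or 3 (-2.09), Fgfr2 FB replicate 3 (-2.02), or PDGFRahi FB replicate 1 (-2.03), 2 (-2.22) or 3 (-2.66), and with only the populations compared (-2.25).

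The PDGFRahi FB of the 2 tissues, sorted through different gates, were compared directly, and edgeR called 0 of 10 genes, with 3 at an unadjusted p under 0.05 (Hey1, Notch3 and Dll4), where 0.963% of all genes were called and 6.53% had such a p. DESeq2 called 1 of 10, and 2.3% of all genes. This was Hey1, which had 110 counts in the colonic libraries and 1 in the SI ones, a ratio of summed counts of 160 with a counting interval from 28.1 to 6361 and a ratio of mean CPM of 103 (adjusted p = 0.0607, edgeR). The fitted value of -6.69 was called by DESeq2 (-7.08), without the filter (-6.72), with length-scaled TPM counts (-6.46) and with only the populations compared (-6.66). It was -8.64 without SI PDGFRahi FB replicate 1, -5.94 without SI PDGFRahi FB replicate 2 and -5.39 without colonic PDGFRahi FB replicate 1, and not called in any of these. In the test of whether the difference between PDGFRahi and Fgfr2 FB itself differed between the tissues, edgeR and DESeq2 each called 0 of 10 genes, with 2 at an unadjusted p under 0.05 (Hey1 and Jag1), where 0.661% of all genes were called by edgeR, 2.09% by DESeq2 and 7.86% had such a p.

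Fgfr2 FB of SI and colon, also from different gates, had 0 of 10 genes called by edgeR, with 2 at an unadjusted p under 0.05 (Notch3 and Dll4) and 1 by DESeq2 (Notch3), where 1.45% of all genes were called by edgeR, 12.6% had such a p and 4.64% were called by DESeq2. SI CD34 FB against SI Fgfr2 FB, which shares the SI Fgfr2 FB libraries, had 0 of 10 called by edgeR, 3 at an unadjusted p under 0.05 (Notch3, Dll4 and Jag1) and 1 by DESeq2 (Notch3), where the shares of all genes were 1.21%, 10.6% and 3.41%. Notch3 differed by 1.91 on the log2 scale (SE 0.60, adjusted p = 0.117, edgeR) in the first and -2.18 (SE 0.60, adjusted p = 0.0734, edgeR) in the second. The first was called without SI Fgfr2 FB replicate 1 (2.42), by DESeq2 (2.05) and without the filter (1.99). The second was called without SI Fgfr2 FB replicate 1 (-2.68) or 2 (-2.58), by DESeq2 (-2.31) and without the filter (-2.26). Both differences of Notch3 rest on SI Fgfr2 FB replicate 3, at 77.5 CPM, and without it they were 0.16 and -0.43, neither called. Those of Dll4, 5.41 and -5.47, rest on SI Fgfr2 FB replicate 2, with 58 of the 59 counts of SI Fgfr2 FB. Without that library they were 0.93 and -0.99.

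Colonic CD81 FB against colonic CD90 and Fgfr2 FB had 0 of 10 genes called by edgeR, with 5 at an unadjusted p under 0.05 (Notch2, Notch3, Jag1, Hey1 and Heyl), where 1.57% of all genes were called and 12.8% had such a p. DESeq2 called 2 of 10, beside 3.51% of all genes: Hey1 (-3.08) and Heyl (-2.09), and without the filter Heyl was called as well (-2.10). The Hey1 value by edgeR, -3.09, was -4.95 and not called without CD81 FB replicate 3. By edgeR the log2 value of Heyl was -2.10 (SE 0.63, adjusted p = 0.0868). Colonic CD90 FB against Fgfr2 FB had 0 of 10 genes called by edgeR and by DESeq2, with 1 at an unadjusted p under 0.05 (Notch3), and edgeR called 0.0% of all genes, with 569 at an unadjusted p under 0.05 and 37 by DESeq2. Across the 10 populations at once, edgeR called 8 of the 10 genes, where 26.4% of all genes were called, and the 2 not called were Jag2 (adjusted p = 0.316) and Notch4 (adjusted p = 0.507).

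Of 4 further Notch target genes, Hey2, a repressor of the same family as Hey1 and Heyl, read 81.4, 78.0 and 112 CPM in SI pericytes and 121, 161 and 139 CPM in colonic pericytes. No other library was above 1.54 CPM, and the colonic pericyte libraries were all above the SI ones. The pericyte mean was 1154 times that of FB in the SI (adjusted p = 2.34e-09, edgeR) and 671 times in the colon (adjusted p = 1.14e-10, edgeR), or 1567 without CD90 FB replicate 1. Nrarp, a feedback inhibitor that Notch induces, read 109, 27.4 and 106 CPM in SI pericytes and 175, 554 and 91.0 CPM in colonic pericytes, and at most 3.62 CPM in any other library. Its ratio to FB was 158 in the SI (adjusted p = 5.13e-08, edgeR) and 622 in the colon (adjusted p = 8.84e-11, edgeR). It was 658 in the SI without SI PDGFRahi FB replicate 1, and in the colon 303 without colonic pericyte replicate 2 and 1083 without CD90 FB replicate 2. The fitted value of Hey2 in the SI, 10.11, was 10.78 without SI Fgfr2 FB replicate 2, and in the colon, 9.80, it was 10.70 without CD90 FB replicate 1. That of Nrarp was 9.21 without SI PDGFRahi FB replicate 1, from 8.11, in the SI and 9.35 without colonic pericyte replicate 2, from 10.42, in the colon.

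Hes1, a repressor that responds to Notch and to other pathways, showed no such step. It read 62.3, 87.5 and 65.1 CPM in SI pericytes, 89.1, 91.4 and 119 in colonic pericytes and 32.6, 12.2 and 4.29 in SMC, and the FB means lay between 24.1 ± 6.71 and 80.6 ± 8.05. Pericytes overlapped FB in both tissues, through an SI Fgfr2 FB library at 64.4 CPM and a colonic CD81 FB library at 99.0 CPM. The log2 fold change against FB was 1.03 (adjusted p = 0.0728, edgeR) in the SI and 1.01 (adjusted p = 0.0703, edgeR) in the colon. Against SMC, SI pericytes had more Hes1 (2.13, SE 0.55, adjusted p = 0.0107, edgeR). This call was lost without SMC replicate 2 (1.96) or 3 (1.62) and when only the populations compared were fitted (2.08), and the value was 3.11 without SMC replicate 1. Against SI FB, Hes1 in SMC was called lower only when SMC replicate 1 was left out (-2.08, against -1.09 with it). Hes5, a target known from neural cells, had 1 count in 1 SI CD34 FB library and 0 in all others, and did not enter the tests.

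**Figure D3:**
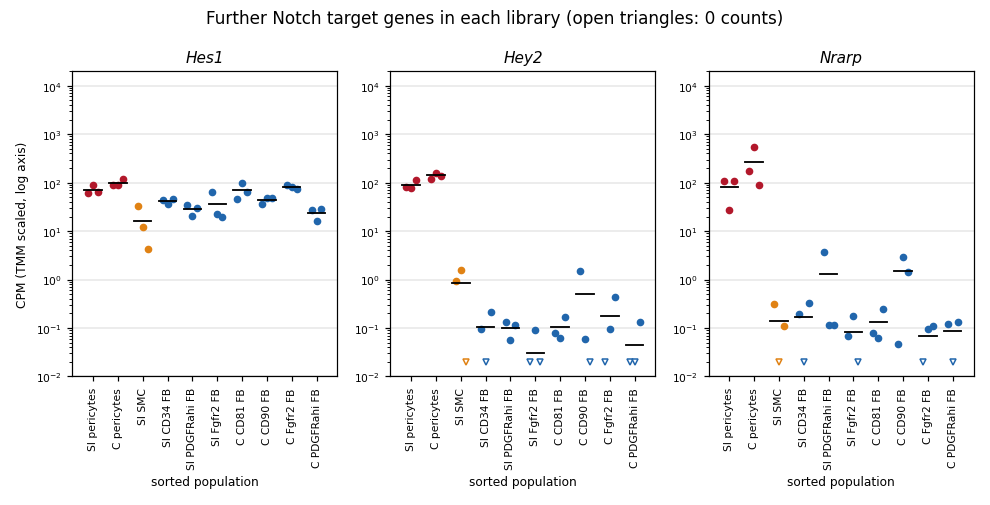
Level of Hes1, Hey2 and Nrarp in CPM (TMM scaled, log axis) in the 10 sorted populations. Each point is 1 library, the bar is the mean of 3 libraries and an open triangle marks 0 counts. Hey2 lies between 78.0 and 161 CPM in pericytes and at or below 1.54 CPM elsewhere.

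SI pericytes also exceeded SMC for Hey2 (ratio 109, adjusted p = 0.000417, edgeR) and Nrarp (ratio 568, adjusted p = 8.25e-05, edgeR). The fitted Hey2 value of 6.74 was 7.53 without SMC replicate 2 (ratio 191) and 6.11 without SMC replicate 3, and that of Nrarp, 9.06, was 10.31 without SMC replicate 1 (ratio 1468). In SMC against SI FB, Hey2 was called higher on 25 counts against 7, with means of 0.830 and 0.0784 CPM (log2 fold change 3.37, SE 0.95, adjusted p = 0.0264, edgeR). That call was lost without SMC replicate 1 (3.28) or 2 (2.58), SI PDGFRahi FB replicate 2 (3.25) or SI Fgfr2 FB replicate 1 (3.12), and the value was 3.97 without SMC replicate 3 and 4.04 without SI Fgfr2 FB replicate 2.

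Including these 4 targets, 44 other genes of the pathway were listed, from glycosylation of the receptors to its nuclear complex, and 41 could be tested. In SI pericytes against FB, 6 of the 41 rose and 3 fell (22.0%, beside 16.6% of all genes), and the median log2 fold change of the 41 was 0.27. In the colon 5 rose and 2 fell (17.1%, beside 16.0%), with a median of 0.36. In SI pericytes against SMC 4 of the 41 were called (9.76%, beside 10.1% of all genes), and in SMC against SI FB 1 (2.44%, beside 5.16%). Neurl1b, a ubiquitin ligase for ligand endocytosis, averaged 182 ± 180 CPM in SI pericytes and 172 ± 49.9 in colonic pericytes and 4.67 to 18.4 in the other populations. It rose by 4.64 on the log2 scale in the SI (SE 0.51, adjusted p = 6.81e-08, edgeR) and by 4.73 in the colon (SE 0.46, adjusted p = 5.67e-09, edgeR), and in the SI the value was 3.53 without SI pericyte replicate 2. Against SMC it also rose in SI pericytes (3.31, adjusted p = 0.00296, edgeR), with 2.203 without SI pericyte replicate 2, and the call was lost when only the populations compared were fitted (3.26). Maml3, a Mastermind-like coactivator of the nuclear complex, averaged 262 ± 184 CPM in SI pericytes and 248 ± 136 in colonic pericytes, against 60.0 and 67.1 in FB of the tissue. Its log2 fold change was 2.21 in the SI (adjusted p = 0.000571, edgeR) and 1.94 in the colon (adjusted p = 0.00119, edgeR). The SI value was 1.52 without SI pericyte replicate 2, still called, and the colonic one 1.46 without colonic pericyte replicate 2, no longer called. Dtx3, a Deltex family ubiquitin ligase named here after its values were seen, rose by 1.81 in the SI (adjusted p = 0.000243, edgeR) and by 1.80 in the colon (adjusted p = 0.000122, edgeR), and its colonic value was 1.32 and not called without colonic pericyte replicate 2.

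Lfng, a glycosyltransferase that modifies Notch, was called higher in SI pericytes on 49 counts in 3 libraries, with 2.101 ± 3.098 CPM against 0.227 in FB (log2 fold change 5.54, adjusted p = 0.023, edgeR). Without SI pericyte replicate 3 the value was 2.80 and not called, and without replicate 2 it was 6.13. The call was also lost under DESeq2 (5.01) and with the FB libraries as 1 group (3.12). Among the genes lower in SI pericytes, Psenen, a subunit of γ-secretase, averaged 3.303 ± 0.351 CPM against 34.5 in FB (log2 fold change -3.35, SE 0.98, adjusted p = 0.0154, edgeR). All 3 libraries were below all FB libraries, and the call was lost without SI pericyte replicate 1 (-3.41) or 2 (-3.26). Dner, a Notch ligand known from neurons, had 0 counts in SI pericytes and was at least 8.50-fold lower than in FB (adjusted p = 0.0266, edgeR). The fitted Dner value of -6.48 was no longer called without SI pericyte replicate 1 (-6.50), 2 (-6.49) or 3 (-6.49), SI PDGFRahi FB replicate 1 (-5.09) or SI Fgfr2 FB replicate 2 (-4.69), or with only the populations compared (-6.32).

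In colonic pericytes the lower genes were Numbl and Neurl1a. Numbl, an endocytic adaptor that limits Notch, averaged 15.2 ± 4.35 CPM against 113 in FB (log2 fold change -2.81, SE 0.46, adjusted p = 3.68e-05, edgeR), and its libraries were below all 12 FB libraries. Neurl1a, a ubiquitin ligase related to Neurl1b, had 2 counts in colonic pericytes and a ratio of summed counts of 60.7 to FB (89.1 for mean CPM), with a counting interval from 16.7 to 502 (adjusted p = 0.0139, edgeR). Its fitted value of -5.75 was -8.30 without colonic pericyte replicate 3, and the call was lost without replicate 1 (-5.30) or 2 (-5.35).

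Between SI and colonic pericytes, 3 of the 41 other pathway genes were called higher and 1 lower in the SI (9.76%, beside 5.72% of all genes). Numbl averaged 53.7 ± 39.8 CPM in SI pericytes and 15.2 ± 4.35 in colonic ones, with overlapping libraries (log2 fold change 1.81, adjusted p = 0.0281, edgeR). Without colonic pericyte replicate 1 (1.82) or 2 (1.59) or SI pericyte replicate 2 (1.31), with length-scaled TPM counts (1.38) or with only the populations compared (1.82), it was not called. Dtx4, a Deltex relative of Dtx3, averaged 311 ± 137 CPM against 106 ± 92.7 (1.56, adjusted p = 0.0338, edgeR). Its call was lost without colonic pericyte replicate 1 (1.18) or 3 (1.29), SI pericyte replicate 1 (1.12), with length-scaled TPM counts (1.504) or with only the populations compared (1.58), and the value was 2.54 without colonic pericyte replicate 2. Neurl1a had 72 counts in SI pericytes, with library values between 0 and 15.5 CPM, and 2 in colonic ones (ratio of summed counts 54.2 and of mean CPM 108, counting interval from 14.5 to 456, adjusted p = 0.0368, edgeR). The fitted value of 6.21 turned to -2.60 without SI pericyte replicate 1. It was 8.75, 6.80 and 6.80 without colonic pericyte replicate 3 and SI pericyte replicates 2 and 3, and not called without colonic pericyte replicate 1 (5.76) or 2 (5.76). Fbxw7, a ubiquitin ligase that marks the Notch intracellular domain for degradation, averaged 10.9 ± 8.58 CPM in SI pericytes and 58.8 ± 52.0 in colonic ones (-2.43, adjusted p = 0.0471, edgeR). It was not called without colonic pericyte replicate 2 (-1.43), SI pericyte replicate 1 (-2.27) or 2 (-2.04), with upper-quartile normalization (-2.28), length-scaled TPM counts (-2.49) or only the populations compared (-2.41), and was -3.28 without SI pericyte replicate 3.

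Among FB, Dner and Maml2 were each called in 1 comparison, as 1 of the 41 genes there (2.44%, beside 3.51% and 1.45% of all genes). Dner was lower in colonic PDGFRahi FB than in the other colonic FB, at 0.177 ± 0.209 against 16.0 CPM (log2 fold change -5.77, SE 1.54, adjusted p = 0.0279, edgeR), and was not called without colonic PDGFRahi FB replicate 1 (-5.58), 2 (-5.21) or 3 (-7.11). Maml2, another Mastermind-like coactivator, was higher in SI than in colonic Fgfr2 FB, at 76.6 ± 32.6 against 24.0 ± 9.35 CPM (1.68, adjusted p = 0.0332, edgeR). Its call was lost without colonic Fgfr2 FB replicate 1 (1.57) or 2 (1.49) or SI Fgfr2 FB replicate 1 (1.36) or 2 (1.65), with length-scaled TPM counts (1.74) or with only the populations compared (1.72).

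Since Dll4, Notch4, Jag1 and Notch1 are also known from endothelial cells, the levels of other cell types' markers stand beside these results. The gate had removed CD31+ cells. All 16 endothelial markers listed were found, and they summed to 381, 296 and 248.7 CPM in the SI pericyte libraries, 117, 142 and 128 in the colonic ones, 343 to 399 in colonic CD81 FB and 62.2 to 223 in all other libraries. The gene adding most was Tek in SI pericytes (111 CPM) and Pecam1 in colonic pericytes (49.5 CPM). In colonic CD81 FB it was Tek, with 307 CPM of a mean sum of 375. Cldn5, Erg, Sox17 and Sox18 were at 0 in all 3 SI pericyte libraries, and Cldn5, Erg and Sox18 in all 3 colonic ones. Such zeros were not particular to pericytes. The same 4 genes were at 0 in SI Fgfr2 FB, and Cldn5, Plvap, Erg and Sox17 in SMC. Of the 16 markers, 5 averaged under 1 CPM in SI pericytes, 8 in colonic pericytes and 6 to 9 in the other populations. Cdh5, which marks endothelial junctions, had 1, 0 and 117 counts in SI pericytes, the highest in the library that also had the most Hey1 and Notch4, and 0, 0 and 8 in colonic pericytes, where Hey1 had 1353, 460 and 216 and Notch4 16, 26 and 297. Cdh5 also had 117 counts in 1 colonic CD90 FB library and 74 in 1 SMC library. The part of endothelial RNA in the levels of these genes was not tested.

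The 9 immune markers summed to 206, 5.05 and 37.7 CPM in SI pericytes (Cd79a adding most) and 10.2, 151 and 82.1 in colonic pericytes (Cd74), with Tyrobp at 0 in all 6 libraries, and to at most 102 CPM in any other library. The 10 epithelial markers summed to between 1.58 and 120 CPM over all libraries, and Epcam was at 0 in all pericyte libraries. The 6 glial or neuronal markers summed to at most 28.1 CPM, with Gfap at 0 in all pericyte libraries, and the 3 mesothelial markers to at most 7.58 CPM, with Msln and Upk3b at 0 in them. The 3 markers of interstitial cells of Cajal summed to between 584 and 1159 CPM in SI pericytes and 687 and 901 in colonic pericytes, to which Ano1 added most, and to between 427 and 505 in SI PDGFRahi FB, to which Etv1 added most. The part of any of these lists in the Notch gene levels was not tested.

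As a description over the 10 population means, with no test, Notch3 followed Dll4 (Pearson r of log levels 0.965), Notch1 followed Dll4 (0.962), Notch3 (0.961) and Heyl (0.921), and Dll1 ran against Jag1 (-0.942), Dll4 (-0.885) and Notch3 (-0.88). The 2 pericyte populations weigh on these values. Among 13233 genes with enough counts, those most like Notch3 were Ephx3 (0.993), Trarg1 (0.99) and Gja4 (0.986), a gap junction protein of vessel walls. Those most like Notch1 were Arhgdib (0.986), Dock6 (0.985) and Pdgfrb (0.982), the receptor that pericytes use to sense PDGF. Most like Notch2 were Zfp407 (0.951), Plpbp (0.94) and Lrrc66 (0.922), and most like Notch4 Cwc27 (0.941), Slc25a33 (0.925) and Fam32a (0.914). For the ligands they were Syt5 (0.971), Lamc3 (0.968) and Cd200r3 (0.959) with Jag1, Vipr1 (0.984), Gja4 (0.982) and Pmfbp1 (0.977) with Dll4, and Fam174b (0.981), Ramp2 (0.972) and Tmem98 (0.972) with Dll1. For the targets they were Adcy3 (0.978), Cbfa2t3 (0.973) and Bcr (0.958) with Heyl, and Ttn (0.895), Lrrc3 (0.889) and Rps15a-ps6 (0.887) with Hey1. Jag2 was too scarce to be compared. Some of these genes were high in 1 library: in the population where each was highest, 1 library held 99.95% of the level of Lrrc66, 98.9% of Rps15a-ps6, 98.5% of Ttn, 94.3% of Syt5, 88.4% of Slc25a33, 77.1% of Arhgdib, 76.7% of Cwc27 and 76.2% of Lrrc3.

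RBPJ, the DNA-binding partner of the Notch intracellular domain, is known to bind the core letters TGGGAA. Promoters from RefSeq (GRCm38.p6), from 250 bases before to 50 after the start that RefSeq gives, were found for 8 of the 10 genes, all but Hey1 and Heyl, and for the further targets Hes5, Hey2 and Nrarp but not Hes1. TGGGAA and its reverse complement TTCCCA were searched on both strands. Neither was found in the windows of the 8 genes or of Nrarp, while 25.6% of 32851 promoters (8397) held at least 1 of them. Hes5 and Hey2 held 2 matches each. The window of Hey2 is shown because it held both forms and the gene was high in pericytes only, and that of Notch3 beside it because it held none. The Hey2 window is chr10:30842734-30843033 and that of Notch3 chr17:32166841-32167140, both on the minus strand and written 5′ to 3′ along the gene, and capitals mark the matches. In Hey2 these begin 207 bases before the start, on the opposite strand, and 3 bases before it, on the strand of the gene. For Notch1 the RefSeq start lies 12841 bases inside the GENCODE gene, and Dll1 had 2 windows, of which 1 starts 1049 bases inside, so these windows are not at the gene starts printed above. A match describes letters, not a bound site.
Hey2: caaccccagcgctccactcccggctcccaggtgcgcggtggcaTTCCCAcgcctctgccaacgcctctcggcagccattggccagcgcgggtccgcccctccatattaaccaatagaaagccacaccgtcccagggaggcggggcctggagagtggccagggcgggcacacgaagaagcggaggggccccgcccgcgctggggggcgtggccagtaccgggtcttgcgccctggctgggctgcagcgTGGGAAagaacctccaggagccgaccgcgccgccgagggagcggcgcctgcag
Notch3: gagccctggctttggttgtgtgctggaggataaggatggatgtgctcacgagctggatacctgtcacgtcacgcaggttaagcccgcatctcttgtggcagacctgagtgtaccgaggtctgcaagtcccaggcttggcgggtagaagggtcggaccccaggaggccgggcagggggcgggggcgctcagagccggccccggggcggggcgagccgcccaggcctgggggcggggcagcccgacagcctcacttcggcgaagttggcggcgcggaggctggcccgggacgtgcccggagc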

How the data were processed

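The authors trimmed reads (Trim Galore 0.4.0, FastQC 0.11.2) and deposited kallisto 0.42.5 estimated counts and TPM per transcript (mm10/GRCm38); the transcript set is not given in the sources used here. Estimated counts were summed to 32316 genes by symbol and rounded. The 17542 genes that reached 6 counts in 3 or more libraries entered 1 model of 10 populations with edgeR 4.0.16 (quasi-likelihood, TMM; R 4.3.3). A call needed a Benjamini-Hochberg adjusted p under 0.05 and a log2 change beyond 1.5 either way. The genes and marker lists were chosen with earlier results of these data known. Named are the 10 genes, 4 targets and, per comparison, at most 5 called pathway genes with the largest change. Marker lists were pericyte, SMC, FB, endothelial, epithelial, immune, glial or neuronal, interstitial cell of Cajal and mesothelial. Alternatives: DESeq2 1.42.0, RLE, upper-quartile, no filter, a stricter filter, length-scaled TPM counts, replicate block, only the populations compared, most abundant transcript, no fold threshold, FB as 1 group, and each library left out.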

Additional observations from a re-analysis of the deposited data

Results flagged for a closer look

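Numbl, an adaptor that limits Notch, was the single pathway gene called for a pericyte to FB difference that itself differed between the tissues. This was 1 of 41 (2.44%, beside 3.76% of all genes). By edgeR 6 of the 41 had an unadjusted p under 0.05 there, beside 19.8% of all genes. Numbl was lower than FB in colonic pericytes, while in SI pericytes it was not called. The log2 difference between the 2 tissues was 2.07 (adjusted p = 0.0305, edgeR's quasi-likelihood test with Benjamini-Hochberg adjustment). Library values were 9.02 to 85.2 CPM in SI pericytes and 10.8 to 19.5 CPM in colonic pericytes, so that the libraries overlapped. Over the other alternatives the adjusted p ran from 0.00186 to 0.127, and with single libraries left out from 0.000553 to 0.103. The call was lost with length-scaled TPM counts (1.69) and without colonic pericyte replicate 1 (2.08) or 2 (1.87) or SI pericyte replicate 2 (1.57). The cause was not tested.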

How the results depend on the processing

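Between populations and in the interactions, 26 calls were made for the 10 genes, not counting the test across the 10 populations. For these calls the other alternatives gave 275 values, of which 6 lost the call, in 4 results. Leaving out single libraries gave 288, of which 17 lost it, in 5 results. In pericytes against FB, DESeq2 also called 7 of the 10 genes in each tissue, where it called 20.5% of all genes in the SI and 18.6% in the colon. In SI PDGFRahi FB against other SI FB the count of 3 ran from 0 to 3 with single libraries left out, and was 0 without SI PDGFRahi FB replicate 2 or 3. In colonic PDGFRahi FB against other colonic FB the count of 1 was 0 with only the populations compared and ran from 0 to 1 with single libraries left out. Between SI and colonic PDGFRahi FB the count of 0 was 1 with DESeq2, 1 with no filter on low counts, 1 with length-scaled TPM counts and 1 with only the populations compared. Between SI and colonic Fgfr2 FB it was 1 with DESeq2, 1 with no filter and from 0 to 1 with single libraries left out. Between SI CD34 and Fgfr2 FB it was 1 with DESeq2, 1 with no filter and from 0 to 1 with single libraries left out. For colonic CD81 FB it was 2 with DESeq2 and 1 with no filter. For Neurl1a between SI and colonic pericytes the fitted 6.21 ran from -2.595 to 8.753 with single libraries left out and was reversed without SI pericyte replicate 1. The cause was not tested.

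With the replicate number as a replicate block, the count of genes called in SI PDGFRahi FB went from 3 to 2 (Notch3, then -1.72) and no other count of the 10 genes changed. Of the other pathway genes named, Lfng in SI pericytes (5.63) and Neurl1a (6.02) and Fbxw7 (-2.31) between pericytes were not called with it. Genome-wide the counts went from 2904 to 2466 in SI pericytes and from 1003 to 729 between pericytes. Populations may share mice, but no source says that equal numbers mark 1 mouse. The mean correlation of deviations was 0.0075 for equal and -0.0034 for unequal numbers, with 1 of 135 equal-number pairs over 0.1. Of 30 libraries, 18 correlated best with one of their own number, where 10 would if numbers carried nothing, a hint from the data and not the design.

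Genome-wide, DESeq2 called 2941 genes against 1779 in SI pericytes minus SMC, 2407 against 1003 between SI and colonic pericytes, 891 against 593 in SI PDGFRahi FB, 403 against 169 between PDGFRahi FB, 814 against 255 between Fgfr2 FB, 598 against 213 in SI CD34 minus Fgfr2 FB, 616 against 275 in colonic CD81 FB, 37 against 0 in CD90 minus Fgfr2 FB, and 1909 against 659 and 367 against 116 in the interactions of pericytes and of PDGFRahi FB. Without the filter the counts were 421 against 275 in CD81 FB and 3 against 0 in CD90 minus Fgfr2 FB. With only the populations compared they were 390 against 1779, 0 against 1003, 406 against 169, 395 against 213, 2 against 0 and 201 against 116 in SI pericytes minus SMC, SI minus colonic pericytes, SI minus colonic PDGFRahi FB, CD34 minus Fgfr2 FB, CD90 minus Fgfr2 FB and the PDGFRahi interaction. Leaving out 1 library gave 2110 to 3469 in SI pericytes, 2232 to 2825 in colonic pericytes, 530 to 921 in SMC, 1267 to 2473 in SI pericytes minus SMC, 616 to 1711 between pericytes, 478 to 1325 in the pericyte interaction, 406 to 601 in colonic PDGFRahi FB (615 with all), 108 to 122 between PDGFRahi FB, 162 to 221 between Fgfr2 FB, 126 to 180 in CD34 minus Fgfr2 FB and 63 to 97 in the PDGFRahi interaction. The share of called genes that were higher moved with DESeq2 to 45.7% in colonic pericytes, 55.35% in SMC, 49.6% in colonic PDGFRahi FB and 45.6% in CD81 FB. The median over all genes shifted by -0.11 with upper-quartile scaling in colonic pericytes, by -0.12 with only the populations compared in CD34 minus Fgfr2 FB, and by -0.13, -0.12 and -0.14 with FB as 1 group in SI pericytes, colonic pericytes and SMC.

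Each population has 3 libraries, and which mouse each came from is not stated. Bulk RNA of sorted cells gives no level per cell, and RNA levels are not protein or signalling activity. Amplification, unequal depth and the gates, which differ between SI and colonic FB, limit comparisons across populations. No SMC were sorted from the colon.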
